A study of Drosophila melanogaster with 4 samples.

Results

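Arm 3L is the left arm of chromosome 3 of Drosophila melanogaster, and the regions described here are the stretches of it that chromatin immunoprecipitation and sequencing (ChIP-seq) marked as enriched for histone H4 over input DNA. Members were all enriched regions on 3L that end within its first 22.9 Mb in FlyBase r5, so the choice rested on the authors' class and on position, not on width or score. Replicate 1 held 2825 of its 15405 enriched regions there, replicate 2 held 2321 of 12952, and the combined list of the replicate set held 4024 of 22525. Coordinates on 3L run from the telomere side at base 1 towards the centromere.

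All material came from wild-type embryos of the Oregon-R strain, labelled as 14 to 16 h of development, with no mutant allele or other treatment. Of 4 libraries, 2 were H4 ChIP libraries and 2 were input libraries of genomic DNA. The inputs are controls and bear the same replicate numbers as the ChIP libraries. Whole embryos were used, so each list averages over all cell types present. Nothing in the labels tells whether separate embryo collections stand behind the replicates, and their spread may be technical only. The files hold regions and scores but no read counts, so the depth of the libraries is unknown.

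Histone H4 is a core subunit of the nucleosome, the protein spool around which DNA is wrapped, and is present at nearly every position of the genome. A region enriched for H4 over input is therefore a place where the immunoprecipitated DNA was over-represented, not a place that alone carries nucleosomes. Most of a Drosophila arm is euchromatin, the gene-bearing and less compact part, and next to the centromere each arm passes into heterochromatin, which is rich in repeats.

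Each region came with the authors' score, whose scale is not given in the sources used here. The values point to a log2 scale. When the difference of a score from the commonest score of its list was read as a log2 value and raised to a power, it gave a fraction with a denominator of at most 60 (within 1e-05) for 11.0% of the regions on 3L in replicate 1 and 10.1% in replicate 2. Read as a natural log the same share was 0.602% and 0.517%, read as a log10 value 0.496% and 0.474%, and read as a linear value 0.46% and 0.56%. Scores on 3L were above 0 throughout, with a lowest value of 0.029 in replicate 1, 0.034 in replicate 2 and 0.0081 in the combined list, as the name of the class asks. They are compared within a list or as a correlation between lists. Where scores of different lists stand side by side, it is not known that the lists share a common level.

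Of the 22.9 Mb of 3L, 32.5% lay in enriched regions in replicate 1 and 25.6% in replicate 2, which is 29.0% ± 4.88 (SD, n = 2). In the combined list the share was 46.8%. The arm stood between 2L and 3R. In replicate 1 the share was 28.4% on 2L, 37.3% on 3R and 24.4% on X, and in replicate 2 it was 23.2%, 29.7% and 17.7%. As a ratio within each replicate, 3L had 1.15 and 1.105 times the share of 2L, 0.871 and 0.862 times that of 3R, and 1.33 and 1.44 times that of X. These ratios were on the same side of 1 in both replicates. As means of the replicates they were 1.13 ± 0.029, 0.867 ± 0.0064 and 1.39 ± 0.081 (SD, n = 2). With only the higher scoring 50% of each list kept, the mean ratios were 1.15 to 2L, 0.903 to 3R and 1.05 to X. The limit here was the median score of a whole list over all sequences. X had higher median scores (0.65 and 0.66) than 3L (0.55 and 0.58), so this limit keeps a larger part of its regions. The smaller excess over X is therefore in part set by the limit. The shares themselves differed more between replicates than between 3L and 2L. With 2 libraries an exact sign-flip test of such a ratio cannot give a two-sided p below 0.5, so none was used. The other 3 arms were taken at full length, and 3L over its full length had 1.08 times the share of 2L as a mean of both replicates.

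The arms differed more in how many regions they held than in how wide these were. On 3L there were 123 regions per Mb in replicate 1 and 101 in replicate 2, against 109 and 92.3 on 2L, 141 and 120 on 3R and 97.5 and 78.4 on X. The median width on 3L was 1977 bp in replicate 1 and 1987 bp in replicate 2. On the other arms it ranged from 1974 to 2003 bp in replicate 1 and from 1864 to 1970 bp in replicate 2. The middle 50% of widths on 3L ran from 1557 to 2985 bp in replicate 1 and from 1568 to 2861 bp in replicate 2. No region of either list was narrower than 1301 bp.

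**Figure D1:**
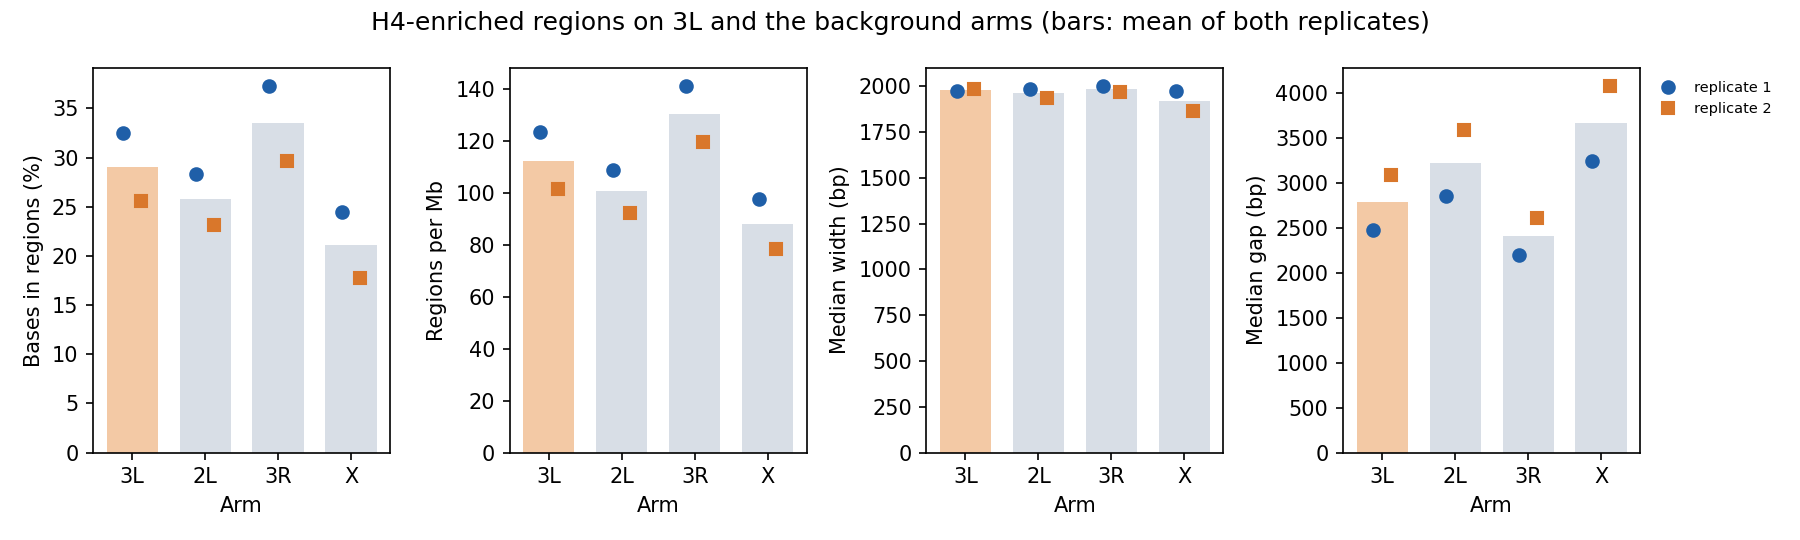
Share of bases in H4-enriched regions (percent), regions per Mb, median region width (bp) and median gap between neighbouring regions (bp) on 3L, 2L, 3R and X, with circles for replicate 1, squares for replicate 2 and bars for their mean. The 3L bar stands between 2L and 3R in share, number and gap, while median widths lie between 1864 and 2003 bp on all 4 arms.

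Wide regions were few but held a large part of the covered bases. On 3L, 225 regions of replicate 1 (7.96%) and 155 of replicate 2 (6.68%) were at least 5 kb wide, and they held 22.8% and 19.0% of the region bases. Regions of at least 10 kb numbered 32 in replicate 1 and 14 in replicate 2. The share of regions of 5 kb or more was 7.63% and 6.78% on 2L, 8.05% and 6.09% on 3R and 6.63% and 3.59% on X, so 3L did not stand apart from the autosomal arms. At the other end, regions under 2000 bp made up 50.8% of the regions of replicate 1 and 50.5% of those of replicate 2, and 30.7% and 31.9% of the bases.

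In each replicate list, regions on 3L came in close succession and were broken up by long stretches with no region of that list. The median gap between neighbours was 2475 bp in replicate 1 and 3094 bp in replicate 2, and 28.4% and 24.7% of gaps were shorter than 1000 bp. When regions less than 1000 bp apart were joined, 46.3% of the regions of replicate 1 and 41.7% of those of replicate 2 belonged to a chain of more than 1 region. These shares were 44.7% and 41.5% on 2L, 48.5% and 45.7% on 3R and 40.0% and 34.4% on X. The longest chain of replicate 1 on 3L had 8 regions over 72.1 kb, from 22287947 to 22360024. In replicate 2 the longest chain lay in the same place, with 6 regions over 38.8 kb from 22288246 to 22327019. Gaps of at least 20 kb were 4.99% of all gaps in replicate 1 and 8.67% in replicate 2, and they took up 21.5% and 33.7% of the arm. The same share of the arm was 29.4% and 38.9% on 2L, 14.9% and 23.8% on 3R and 36.2% and 49.8% on X. The order of the arms was thus the reverse of that for covered bases. In the combined list gaps of at least 20 kb took up 7.55% of 3L, so the extent of long gaps depended on the list. Here too 3L stopped at 22.9 Mb, while the other arms were taken at full length.

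Scores rose with width in both replicate lists. Regions of 3L under 1500 bp had a median score of 0.43 in replicate 1 and 0.45 in replicate 2, those from 2000 to under 3000 bp had 0.63 and 0.64, and those of at least 10 kb had 0.94 and 0.88. Across regions the Spearman rho of width and score was 0.72 in replicate 1 and 0.74 in replicate 2. In the combined list it was 0.62. There the median score did not rise between the narrowest classes, with 0.32 under 1500 bp and 0.31 from 1500 to under 2000 bp. The score may be a summary over the region, so the 2 measures need not be independent. Median scores on 3L were 0.55 and 0.58 in replicates 1 and 2, close to the 0.55 and 0.57 of 2L and the 0.55 and 0.57 of 3R, while X had 0.65 and 0.66.

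Coverage was not even along 3L. In stretches of 5 Mb it fell from the telomere side to the middle of the arm and was higher again on the centromere side. Bases 1 to 5000000 were covered to 41.1% in replicate 1 and 33.5% in replicate 2, and the next 5 Mb to 33.6% and 25.8%. From 10000001 to 15000000 the share was 25.1% and 19.6%, and from 15000001 to 20000000 it was 26.5% and 20.9%. The last 2900 kb, from 20000001 to the limit, had 38.8% and 30.1%. Region numbers were also lower in the middle. From the first stretch to the last there were 140, 129, 107, 104 and 147 regions per Mb in replicate 1 and 122, 103, 84.4, 84.4 and 121 in replicate 2. Numbers and shares did not have the same order in replicate 1, which had its highest share in the first stretch and its highest number in the last. Median widths stayed between 1864 and 2058 bp in replicate 1.

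Single windows of 100 kb showed a much wider range than these averages. Over the 229 windows of the arm the share ran from 2.68% to 92.7% in replicate 1, with a median of 33.8%, and from 0% to 81.3% in replicate 2, with a median of 25.2%. By the mean of both replicates the lowest window ran from 18300001 to 18400000 (2.02%). The highest was that from 22300001 to 22400000 (84.3%), where replicate 1 had 12 regions and replicate 2 had 16. The coefficient of variation over windows was 0.495 in replicate 1 and 0.570 in replicate 2, against 0.564 and 0.638 on 2L, 0.431 and 0.502 on 3R and 0.619 and 0.677 on X. In both replicates, therefore, coverage was less even on 3L, without its centromere-side end, than on the whole of 3R. It was more even than on the whole of 2L or X. Neighbouring windows of 3L were alike, with a Pearson r of 0.51 in replicate 1 and 0.43 in replicate 2. At a distance of 5 windows r was 0.17 and 0.11. These values describe windows of 1 list, which share a library.

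**Figure D2:**
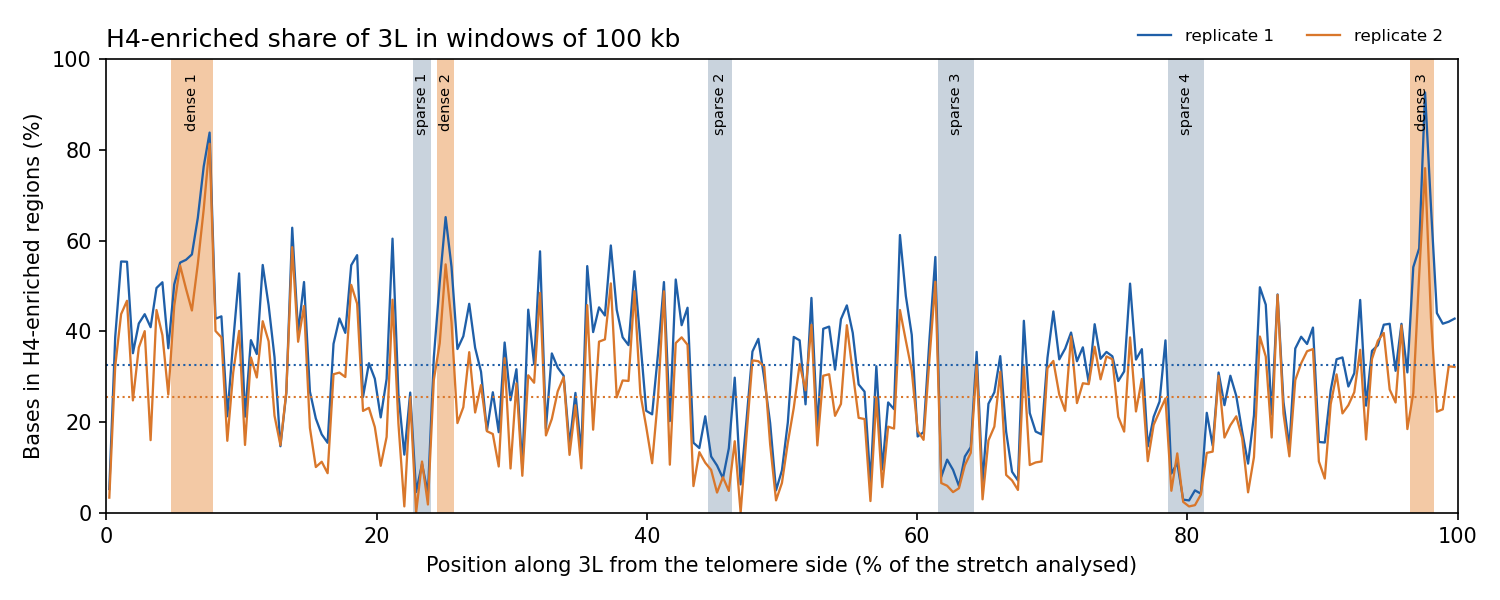
Percentage of bases in H4-enriched regions in windows of 100 kb along 3L, with position as a percentage of its first 22.9 Mb counted from the telomere side, for replicate 1 (blue) and replicate 2 (orange). Dotted lines are the shares of these 22.9 Mb, 32.5% and 25.6%. Shaded bands are the 3 dense (orange) and 4 sparse (blue-grey) domains drawn from replicate 1, numbered from the telomere side, and both replicates rise and fall together along the arm.

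By windows of 1 Mb, the highest shares on 3L were from 1000001 to 2000000, from 22000001 to the limit and from 8000001 to 9000000. The first had 56.6% in replicate 1 and 50.2% in replicate 2. The second, of 900 kb, had 52.7% and 36.2%, and the third had 42.9% and 33.3%. At the low end stood the windows from 18000001 to 19000000 with 12.6% and 10.1%, from 10000001 to 11000000 with 17.2% and 11.7%, and from 14000001 to 15000000 with 18.4% and 14.8%. The order of high and low windows was similar in the replicates, but replicate 1 was higher in each, by 1.13 times from 1000001 to 2000000 and by 1.46 times in the last window of the arm.

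Domains were then drawn from replicate 1 alone, so that replicate 2 gave values that the choice had not used. A dense domain was a run of at least 300 kb, or 3 windows of 100 kb, in which each window had 1.5 times the arm share or more. A sparse domain was such a run at 0.5 times or less. With other window sizes the shortest length stayed at 300 kb. Thus 1 window of 500 kb was enough, while windows of 50 kb needed a run of more windows. There were 3 dense domains over 1.4 Mb (6.11% of the arm) and 4 sparse domains over 1.9 Mb (8.30%). These numbers depended on the settings: dense domains took up 1.53% of the arm with windows of 50 kb, 3.49% with windows moved by 50 kb and 14.0% with a limit of 1.25 times the arm share. Sparse domains took up 15.7% when only the higher scoring 50% of regions were kept and 18.8% with a limit of 0.75 times. Replicate 2, against its own arm share, had 1.75 to 2.22 times that share in the 3 dense domains and 0.170 to 0.299 times it in the 4 sparse ones. Every domain, taken as a whole, thus lay on the same side of the arm share in the replicate that had not been used to draw it. As a class the dense domains were covered to 63.3% in replicate 1 and 52.1% in replicate 2, the sparse ones to 8.41% and 5.92%, and the rest of the arm to 32.6% and 25.6%.

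The first dense domain was the longest, from 1100001 to 1800000 (700 kb), near the telomere side. It was covered to 63.3% in replicate 1 and 56.7% in replicate 2. Its 100 kb windows ranged from 50.3% to 83.8% in replicate 1 and from 44.6% to 81.3% in replicate 2, all above the 100 kb before it (36.2% and 26.0%) and the 100 kb after it (42.7% and 40.1%). Replicate 2 had 124 regions here and replicate 1 had 115, the only 1 of the 7 domains in which replicate 2 had more. The lists shared 75.1% of the bases that either covered, which was the highest value among the domains.

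A short dense domain lay from 5600001 to 5900000 (300 kb) with 56.7% and 44.7%. Only 100 kb separated it from a sparse domain from 5200001 to 5500000 (300 kb), where replicate 1 had 11 regions over 6.52% and replicate 2 had 6 regions over 4.35%. The window between them held 34.2% and 29.3%. Coverage in replicate 1 thus went from at most 10.7% to at least 50.8% per window over 100 kb. This dense domain was not drawn with windows of 50 kb or of 500 kb, with windows moved by 50 kb, or from replicate 2.

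The third dense domain lay from 22100001 to 22500000 (400 kb), close to the centromere side. Replicate 1 covered 68.1% of it, its highest value for a domain, and replicate 2 covered 49.4%. Replicate 1 was thus 1.38 times replicate 2 here, against 1.12 in the dense domain near the telomere. Median scores were 0.59 and 0.60, below the 0.65 and 0.64 of the domain near the telomere. In replicate 2 its 100 kb windows ranged from 26.3% to 76.0%, so the lowest was near the arm share of 25.6%. Drawn from replicate 2, the domain began at 22200001. With windows of 50 kb it was not drawn.

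Within the part of 3L examined here, sparse domains lay in the interior. No domains were drawn past that part, where coverage was also low. From 22950001 to the end of 3L it was 13.2% in replicate 1 and 9.90% in replicate 2. The sparse domain with the lowest share in replicate 1 ran from 18000001 to 18600000 (600 kb), with 17 regions over 5.70% in replicate 1 and 14 regions over 4.53% in replicate 2. In replicate 2 the domain at 5200001 was the lowest, and its first window of 100 kb held no region. The median gap of the domain at 18000001 was 16505 bp in replicate 1 and 21411 bp in replicate 2. The others ran from 14100001 to 14700000 (600 kb), with 10.3% and 7.65%, and from 10200001 to 10600000 (400 kb), with 11.1% and 6.60%. A sparse domain could begin abruptly: the 100 kb before that at 14100001 held 56.4% in replicate 1 and 50.9% in replicate 2, and the 100 kb after that start held 7.87% and 6.51%. Each sparse domain held regions in both replicates.

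**Figure D3:**
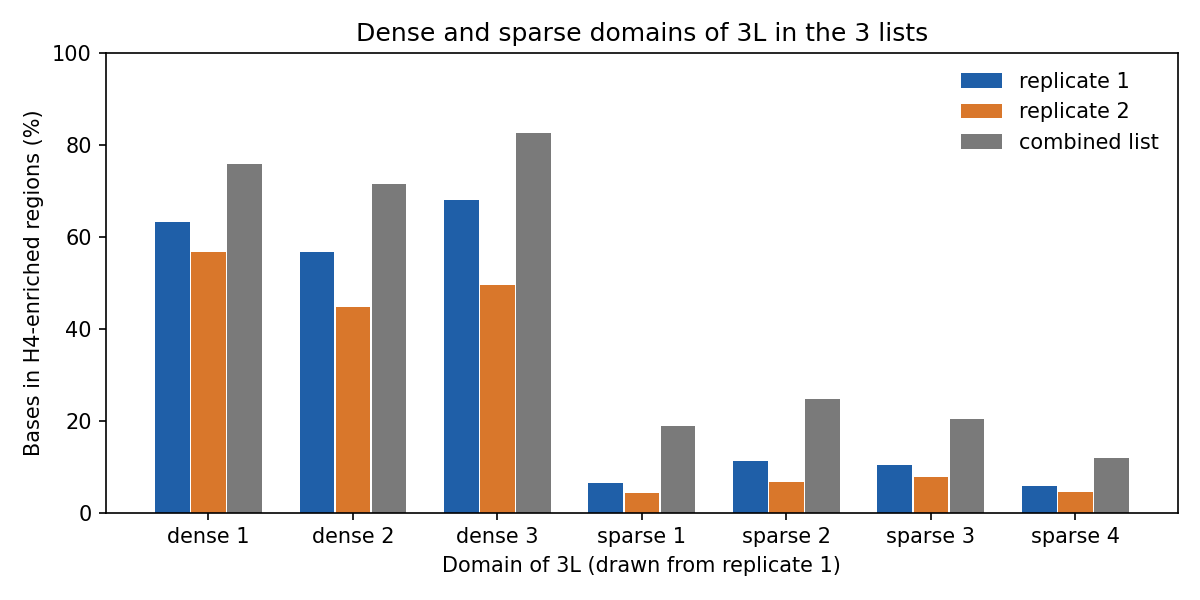
Percentage of bases in H4-enriched regions in each of the 7 domains of 3L drawn from replicate 1, as bars for replicate 1, replicate 2 and the combined list. Replicate 2 has 44.7% to 56.7% in the dense domains and 4.35% to 7.65% in the sparse ones, and the combined list is the highest of the 3 in every domain.

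In both replicate lists, dense domains held more and wider regions than the rest of the arm, and sparse domains held fewer and narrower ones. Replicate 1 had 172 regions per Mb in dense domains, 127 in the rest of the arm and 45.8 in sparse domains, and replicate 2 had 166, 103 and 31.6. Mean widths were 3690, 2560 and 1837 bp in replicate 1 and 3144, 2473 and 1876 bp in replicate 2. The combined list differed in number: it had 166 regions per Mb in dense domains, fewer than the 183 in the rest, and 106 in sparse domains, with mean widths of 4652, 2588 and 1720 bp. Regions of at least 5 kb were 18.7% of the regions of dense domains in replicate 1 and 14.6% in replicate 2, and 1 region in each replicate in the sparse domains together. Median scores in replicate 1 were 0.63 in dense domains, 0.55 in the rest and 0.49 in sparse domains, and in replicate 2 they were 0.62, 0.57 and 0.52. The values of replicate 1 follow in part from the way the domains were drawn.

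By the same rule, 2L had 4 dense and 5 sparse domains in replicate 1, 3R had 1 of each, and X had 4 dense and 6 sparse. In replicate 2 the numbers were 5 and 5 on 2L, 1 and 3 on 3R, 4 and 6 on X, and 2 and 7 on 3L. Sparse domains took up 8.30% of 3L in replicate 1 and 11.4% in replicate 2, 8.26% of 2L in both, 1.08% and 3.58% of 3R, and 8.47% and 9.37% of X. Dense and sparse domains of 300 kb or more were thus found on 3L, 2L and X, while 3R had few. The limit for each arm is relative to its own share. As above, 3L was taken without its centromere-side end, while 2L, 3R and X were at full length. That end was covered to 13.9% in replicate 1 and 10.2% in replicate 2 and was not searched for domains. The percentages of 3L are thus not directly comparable with those of the other arms.

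Regions continued on both sides of the limit at 22.9 Mb. The last region inside it ended at 22897785 in replicate 1 and 22897981 in replicate 2, with scores of 0.69 and 0.60. The first outside it began at 22904213 and 22909486, with scores of 0.42 and 0.46. The last 900 kb inside were covered to 52.7% and 36.2%, the first 50 kb outside to 35.4% and 20.8%, and the remaining 1594 kb of 3L to 13.2% and 9.90%. Region numbers outside the limit were 91, 69 and 150 in replicate 1, replicate 2 and the combined list.

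The overlap of the replicates on 3L was measured next. Bases in both lists came to 5.18 Mb, or 69.7% of what replicate 1 covered and 88.5% of what replicate 2 covered. By number, 1992 of the 2825 regions of replicate 1 on 3L (70.5%, 95% Wilson interval 68.8 to 72.2%) touched a region of replicate 2, against 70.8% over all 13 sequences. Of the 2321 regions of replicate 2, 2092 (90.1%, 88.9 to 91.3%) touched a region of replicate 1, against 88.8% over all sequences. The shares on 3L were thus near the background. Counting error alone is in these intervals, which take regions as independent. On 2L the shares were 71.8% and 87.8%, on 3R 71.7% and 89.3%, and on X 65.6% and 86.7%. X alone of these arms was lower in both directions than 3L, 2L and 3R.

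Whether a region of 3L touched the other list went with its width. In replicate 1, 214 of 572 regions under 1500 bp did so (37.4%, 95% Wilson interval 33.5 to 41.4%), and this share was 57.9% from 1500 to under 2000 bp, 85.9% from 2000 to under 3000 bp and 97.1% from 3000 to under 5000 bp. In replicate 2 the same classes had 72.0%, 86.9%, 99.2% and 100%. All 225 regions of replicate 1 and all 155 of replicate 2 with at least 5000 bp touched the other list. Wide regions also touch more often by chance, and this part was not tested. The 833 regions of replicate 1 that touched none had a median width of 1546 bp and a median score of 0.47, against 2340 bp and 0.60 for those that did. The 229 of replicate 2 had 1454 bp and 0.48, against 2087 bp and 0.59. This pattern was not particular to 3L. Regions of replicate 1 that touched none had median widths of 1516 bp on 2L, 1553 bp on 3R and 1586 bp on X. In replicate 2 these were 1455, 1458 and 1467 bp. Of replicate 1 regions with at least 5000 bp, 190 of 191 touched on 2L, 316 of 317 on 3R and 144 of 145 on X.

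**Figure D4:**
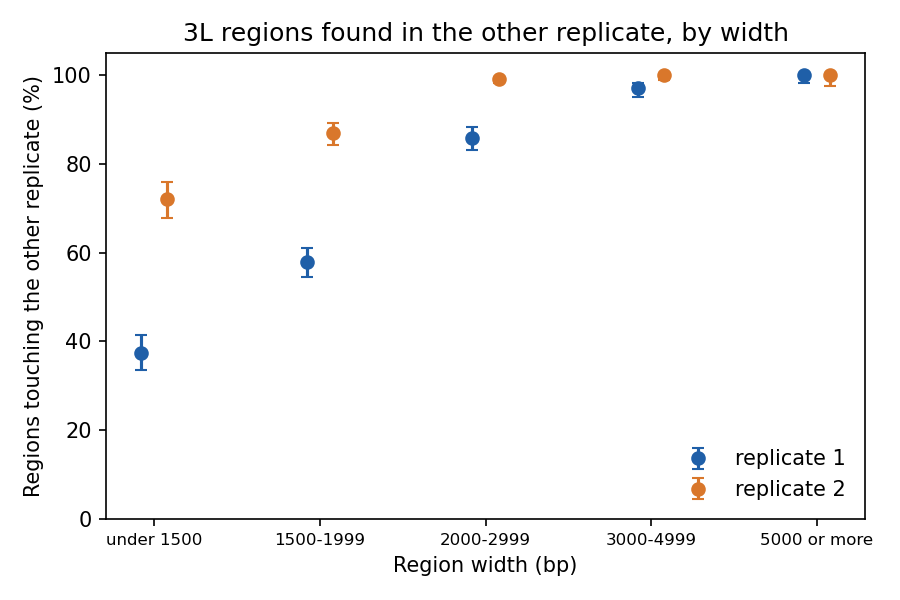
Percentage of 3L regions that share at least 1 base with a region of the other replicate, by region width (bp), for replicate 1 (blue) and replicate 2 (orange), with 95% Wilson intervals. The share rises from 37.4% and 72.0% under 1500 bp to 100% in both replicates at 5000 bp or more.

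Where both replicates had a region, its edges lay close together. On 3L, 1931 pairs were each other's largest overlap, and the median distance between their starts was 138 bp and between their ends 133 bp. Both edges were within 200 bp in 41.3% of the pairs. Regions of replicate 2 lay wholly inside their partner in 41.1% of the pairs, and those of replicate 1 did so in 12.7%. Paired scores were correlated (Pearson r 0.81, Spearman rho 0.77), and widths had a rho of 0.76. These are correlations across regions, which are not independent replicates. Values were alike on 2L (r of scores 0.82, starts 128 bp apart) and 3R (0.81, 133 bp), while on X the scores had an r of 0.72 and starts lay 181 bp apart. Splitting was uncommon: 173 regions of replicate 1 on 3L (6.12%) held 2 or more of replicate 2, with at most 4, and 95 regions of replicate 2 (4.09%) held 2 or more of replicate 1, with at most 3.

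Over the 229 windows of 100 kb the replicates were correlated (Pearson r 0.95, Spearman rho 0.93, both from windows that share 2 libraries), and replicate 1 was above replicate 2 in 220. The median ratio of replicate 1 to replicate 2 was 1.28 on 3L, 1.23 on 2L, 1.248 on 3R and 1.41 on X. Replicates overlapped more in dense than in sparse domains. They shared 63.3% to 75.1% of the bases covered by either in the dense domains and 33.1% to 52.0% in the sparse ones, against 63.9% on the whole arm, which the dense domain on the centromere side did not reach. The domains were chosen for high or low coverage in replicate 1, so this contrast is in part set by the choice. Lists that cover more of a stretch also meet more often by chance, and this part was not tested.

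**Figure D5:**
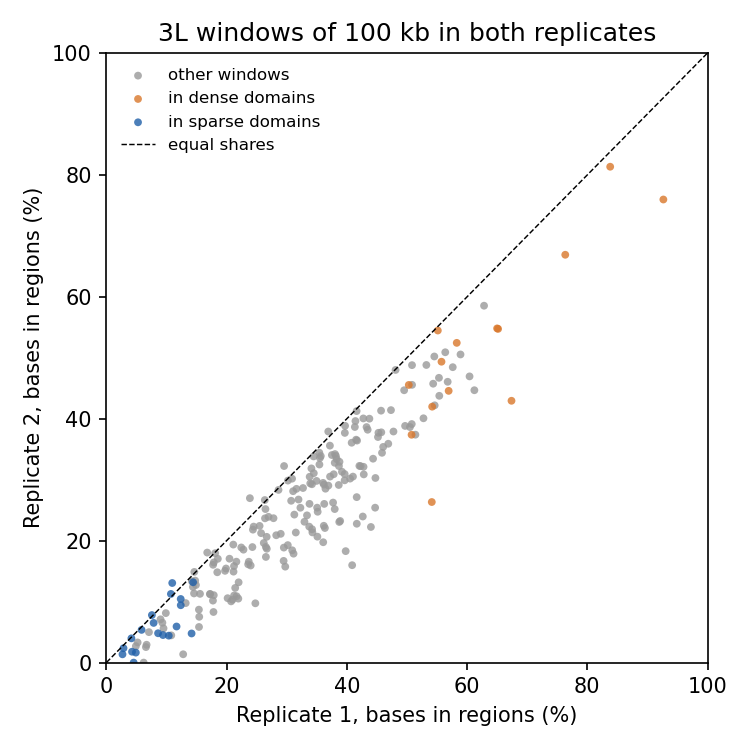
Percentage of bases in H4-enriched regions in replicate 1 (horizontal axis) and replicate 2 (vertical axis) for the 229 windows of 100 kb on 3L, with windows of the dense domains in orange and of the sparse domains in blue. Most points lie below the dashed line of equal shares, and replicate 1 is above replicate 2 in 220 windows.

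The last comparison set the combined list beside the lists of single replicates. On 3L it covered 10.7 Mb and held 99.0% of all bases that a replicate list marked. As for its own bases, 48.4% were in both lists, 26.6% in 1 and 25.02% (2.68 Mb) in neither. The share in both was 47.0% on 2L, 47.7% on 3R and 39.6% on X. The share in neither was 27.5%, 25.3% and 29.4%. By number, 1805 of 4024 regions touched both lists (44.9%, 95% Wilson interval 43.3 to 46.4%), 948 touched 1 (23.6%, 22.3 to 24.9%) and 1271 touched neither (31.6%, 30.2 to 33.0%). Over all sequences these shares were 43.3%, 23.9% and 32.8%, so 3L was near the background in each. Regions that touched both lists had a median width of 3109 bp, and those that touched neither had 1272 bp. Of the latter, 720 were under 1301 bp, the smallest width in the lists of single replicates. The share of combined regions that touched neither list was 15.5% in the dense domains, 31.6% in the rest of the arm and 50.0% in the sparse domains, where 101 of 202 did so. Since the domains were drawn from replicate 1, the choice itself favours this order.

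Of the 4024 combined regions, 1609 lay to 50% or more in both replicate lists, and the 10 longest of these were gathered near the ends of the arm. They comprised 6 that ended before base 3000000, 2 near the centromere side and 2 between. The longest, from 22295426 to 22340979 (45.6 kb, score 0.81), and the next, from 22367193 to 22399466 (32.3 kb, score 0.67), both lay in the dense domain on the centromere side. The longest was made up of 3 regions in replicate 1 and of 7 in replicate 2. The following ranks were 24.6 kb from 7312911 to 7337549, 23.5 kb from 1940790 to 1964293 and 22.6 kb from 1756001 to 1778554. Ranks 6 to 10 were from 17.8 to 18.7 kb, from 834076 to 852823, 2225476 to 2244093, 8333731 to 8351633, 1690122 to 1707979 and 188021 to 205793. Replicate 1 held 90.7% to 99.1% of the bases of the 10 regions, and replicate 2 held 77.4% to 99.5%. The longest region of replicate 1 alone was 23.8 kb, from 22317174 to 22340931, and 90.2% of its bases were in 3 regions of replicate 2. In replicate 2 the longest was 16.2 kb, from 1756006 to 1772205, of which 95.5% lay in 1 region of replicate 1.

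High scores under the same condition were found in other, shorter regions. The highest was 1.24, for a region of 10.0 kb from 8465640 to 8475672. It was followed by 1.23 from 19874999 to 19882097 (7.10 kb), 1.22 from 1592679 to 1600472 (7.79 kb), 1.19 from 3226143 to 3232722 (6.58 kb) and 1.18 from 14000060 to 14011497 (11.4 kb). Each of these 5 was a single region in both replicates, with 97.9% to 99.5% of its bases in replicate 1 and 86.5% to 99.5% in replicate 2. None of them was among the 10 longest.

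The arm also held stretches with no region in any of the 3 lists. There were 61 of at least 20 kb, 1.74 Mb in all. The longest was the first 53.8 kb of the arm, from base 1 to 53780, and the next was 50.6 kb from 71267 to 121867, so both lay at the telomere-side tip. Then came 50.3 kb from 18234702 to 18285024 and 49.1 kb from 18518338 to 18567392, both inside the sparse domain at 18000001, and 43.7 kb from 15340317 to 15384027.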

How the data were processed

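The lists of H4-enriched regions of 2 ChIP libraries, and the combined list, were analysed on arm 3L. Bowtie 0.12.7 is named in the submitters' processing notes, and the build is FlyBase r5, per the file headers. The caller is not given in the sources used here, nor is its threshold or the combining step. The authors deposited a score for each region, and its start and end, which are positions and not measurements (other values). Repeats and mappability can affect where regions are called, and neither was examined. The gene table at hand is of another build, so no genes are named and no sequence is shown.

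From the files, covered bases, widths, gaps, overlaps of at least 1 base, pairs of mutual largest overlap and shares per window were computed with SciPy 1.17.1, pandas 2.3.3 and NumPy 2.4.6 in Python 3.11.15, and figures were drawn with matplotlib 3.10.9. The interval functions were tested on simulated data. Background arms were 2L, 3R and X at full length. The 2 ChIP libraries form 1 group, so all comparisons are descriptions of both replicates and no p-value was computed. Without read counts the depth is unknown, so single regions carry no interval.

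Named are the 10 longest and 5 highest scoring combined regions that lie to 50% or more in both replicate lists, the longest region of each replicate, the 5 longest empty stretches, the 3 highest and 3 lowest windows of 1 Mb and all domains. The members, the rules and the alternatives were chosen with earlier results of these data known. Alternatives were the higher scoring 50% of each list, each replicate alone, the combined list, the whole of 3L, other windows and other overlap rules.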

Additional observations from a re-analysis of the deposited data

Results flagged for a closer look

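The combined list holds a class of regions that the comparisons above did not use, named as depleted of H4. On 3L there were 5 of the 14 in the whole list. Widths were 1411 to 1480 bp, and scores ranged between -0.10 and -0.0026. They lay from 7386383 to 7387803, 10683896 to 10685306, 12166388 to 12167801, 15265257 to 15266684 and 18675875 to 18677354. Of these, 3 had 98.5% to 100% of their bases in an enriched region of replicate 1, and 1 had 99.0% in an enriched region of replicate 2. The one from 12166388 lay in no enriched region of either replicate.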

How the results depend on the processing

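No paired analysis was possible because ChIP and input, the groups that share replicate numbers, were not compared: no values of the input libraries were used here. Arms were compared within each replicate. The limits of 1.25 and 0.75 times the arm share were chosen after seeing the data. Leaving out 1 of 2 replicates gave 10 values, which cannot move by more than the replicate SD and so say nothing of stability. Of the other 42 values, 11 were counted as unmoved and 31 as moved, by limits that differed between results and were not all a replicate spread or a counting interval. For shares of bases the limit was very narrow. A share of covered bases in both lists of 63.94%, with regions of at least 2000 bp, counted as moved from 63.87%. A correlation of window shares between replicates has no replicate spread, and 0.942 counted as unmoved from 0.947 but 0.935 as moved. The tally is therefore no measure of stability. Causes were not tested, and the effect of depth could not be examined.

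When only the 50% of regions with higher scores were kept, the covered share of 3L was 17.9% as a mean of replicates, the median width 2844 bp, the ratio to 3R 0.903 and that to X 1.05, the Jaccard index (shared over all covered bases) 58.7%, the touching shares 65.6% for replicate 1 and 81.5% for replicate 2, the sparse domains 15.7% of the arm, and the combined bases in both lists 45.1%. In the combined list the share was 46.8%, the median width 1913 bp and the ratios 1.09 to 2L, 0.859 to 3R and 1.23 to X. Over the whole of 3L the ratios were 1.08 to 2L and 0.833 to 3R, the Jaccard index 63.8% and the combined bases in both lists 48.2%. Replicate 1 alone gave a share of 32.5%, a median width of 1977 bp and ratios of 1.15 to 2L, 0.871 to 3R and 1.33 to X. Replicate 2 alone gave 25.6%, 1987 bp, 1.105, 0.862 and 1.44.

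Merging regions within 100 bp gave a median width of 2019 bp, and regions of at least 2000 bp a Jaccard index of 63.9%. With at least 50% of a region shared, 66.6% of replicate 1 and 88.1% of replicate 2 touched. With replicate 1 reduced to the covered length of replicate 2, the shares were 81.5% and 67.4% and the Jaccard index was 60.8%. Windows of 50 kb and 500 kb gave correlations of 0.93 and 0.98. Dense domains were 1.53% of the arm with windows of 50 kb (1 domain), 3.49% with windows moved by 50 kb (2 domains) and 14.0% with the limit of 1.25 times the arm (6 domains). Sparse domains were 18.8% with the limit of 0.75 times (10 domains). The dense domain near the telomere and the sparse domains at 5200001, 10200001 and 18000001 were drawn under all 6 alternatives, in part or whole. The sparse domain at 14100001 and the dense domain on the centromere side were drawn under 5, and the short dense domain under 2. Any overlap of at least 1 base was counted. The limits of 1.25 and 0.75 times keep every domain by construction, so that alternative, included in each of these counts, says nothing of recurrence.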

Other observations

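The highest score of replicate 2 on 3L stood apart from the rest of its list. A region of 1852 bp from 5112945 to 5114796 had a score of 1.79, and the next highest was 1.251. Replicate 1 had no region there, and its own highest score on the arm was 1.37. In the combined list a region from 5112799 to 5114669 had a score of 1.20, which ranked 8 of 4024. Among other regions of replicate 2 with no partner the highest score was 0.79.

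The 3 highest scores of the combined list on 3L belonged to regions that lay in neither replicate list. They had 1.68 from 19764358 to 19765358, 1.65 from 22096642 to 22098636 and 1.503 from 11608664 to 11609664. Of these, 2 were 1001 bp wide, which was the narrowest width in that list. These regions were picked after their values were seen.

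Regions of replicate 1 with no partner were all under 5000 bp. The widest, 4366 bp from 22355659 to 22360024, lay in the dense domain on the centromere side, between the 2 longest regions of the combined list. The next, 4342 bp from 5671086 to 5675427, lay in the dense domain at 5600001. In replicate 2 the widest region with no partner was 2783 bp, from 6346791 to 6349573.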
